A study of Mus musculus with 25 samples.

Results

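Tsc1-null mouse embryonic fibroblasts exposed to rapamycin for 6 h were compared with the same cells under vehicle. The comparison holds 5 of the 25 arrays of the series, 2 of rapamycin-treated and 3 of vehicle-treated plates, chosen by the titles that give genotype, treatment and hours. All 5 plates were of a single line (Tsc1-/-, p53+/+, immortalized by the 3T3 protocol). Cells at 70% confluence were starved of serum for 24 h, so both groups lacked serum. The treated cells received 20 nM rapamycin for the final 6 h, whereas the controls received DMSO for 24 h. The titles call the controls untreated, and the agent label gives DMSO. No vehicle plate received DMSO for only 6 h, so effects of rapamycin and of the time since dosing cannot be told apart. The same line was also sampled after 2, 12 and 24 h of rapamycin (2 arrays each). A Tsc2-null line (Tsc2-/-, p53-/-) had 2 arrays at 6 h and 3 under vehicle, and a wild-type line (Tsc2+/+, p53-/-, from a littermate of the Tsc2-null line) had 3 under vehicle. Each genotype is 1 line, and replicates are plates, so the p-values speak only of how plates of 1 line vary.

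Tsc1 and Tsc2 encode partners in a complex that switches off the small GTPase Rheb and thereby restrains mTORC1, a protein kinase complex that promotes synthesis of protein, lipid and nucleotides. Without either partner mTORC1 stays active in the absence of serum. Rapamycin binds FKBP12, and the pair inhibits mTORC1. Among the transcription factors known to act downstream of mTORC1 are HIF-1, which drives glucose uptake and glycolysis, SREBP, which drives lipid synthesis, and ATF4, which drives amino acid synthesis and transport. Active mTORC1 is also known to dampen signalling from growth factor receptors through feedback.

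The arrays of the groups differed slightly in spread. The SD over probe sets was 2.22 and 2.21 on the 6 h arrays and 2.25, 2.26 and 2.29 on the vehicle arrays, on the log2 scale. In the deposited values, the 5 dimmest of 10 equal classes of genes by mean level therefore had median differences of 0.07 to 0.14, and the 4 brightest classes had median differences of -0.09 to -0.04. After quantile normalization, which gives every array the same distribution of values, the median differences of all 10 classes lay between 0.01 and 0.10. The median over all genes was 0.06 as deposited, 0.04 after quantile normalization and -0.02 after centring each array on its median. Fibroblast identity was read from fixed markers: Col1a2, Vim, Fn1, S100a4, Col3a1 and Sparc had mean vehicle levels of 13.27 to 13.95, while Thy1 (7.64) and Lum (5.37) were dim. Of 41 markers of epithelium, endothelium, leukocytes, skeletal muscle, adipocytes and neural cells, the brightest under vehicle were Epcam (8.85), Kdr (8.60) and Fabp4 (8.46), and 6 were called higher and 2 lower (Kdr and Fabp4) at 6 h. The 6 became 3 after quantile normalization, 1 after median centring or without vehicle replicate 3, 2 without vehicle replicate 2 and 0 without either 6 h array, and the share called higher over all genes was 9.50%. Their part in the results below was not tested. On bulk RNA, fewer cells of a kind and less RNA per cell cannot be told apart.

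**Figure D1:**
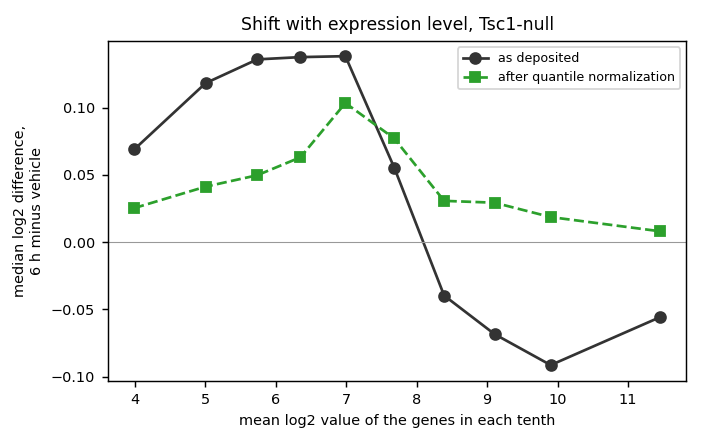
Median log2 difference between rapamycin 6 h and vehicle arrays in Tsc1-null cells (vertical axis) for 10 equal classes of genes by mean log2 level (horizontal axis). As deposited (circles), dim genes lie above 0, up to 0.14, and bright genes below it, and quantile normalization (squares) brings all 10 classes to between 0.01 and 0.10.

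After 6 h of rapamycin, genes of glucose uptake, the hypoxia response, amino acid supply and sterol synthesis were lower than under vehicle. Egr1, Fgf7 and cytoskeletal genes were higher. Of 18193 genes, 4099 (22.5%) passed limma's moderated test at an adjusted p under 0.05, 1728 higher (9.50%) and 2371 lower (13.0%). Most changes were small: 160 genes rose and 536 fell by at least 1.5-fold, and 19 rose and 71 fell by at least 2-fold. The direction split depended on scaling. Quantile normalization gave 2261 higher (12.4%) and 2049 lower (11.3%), and median centring gave 770 higher (4.23%) and 2780 lower (15.3%). With the dimmest 40% of genes left out, 1606 of 10916 genes were higher and 2573 lower. Most members of each of the 26 gene lists below lie above that 40%, so these counts are their closer background. In all, 3397 genes were called in the same direction with and without quantile normalization, 1477 of them higher and 1920 lower. The arrays of the groups did not overlap for 4083 of the called genes, against 56.6% of all genes tested. With a single 6 h array the count was 2369 without replicate 1 and 2087 without replicate 2 (838 and 691 higher, 1531 and 1396 lower), and 1117 genes were higher without vehicle replicate 3.

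The largest rise was that of Egr1, an immediate early transcription factor. Its log2 level was 6.75, 6.80 and 6.65 on the vehicle arrays and 8.74 and 8.84 at 6 h. Both treated arrays lay far above all controls, a 4.16-fold rise (log2 difference 2.06, SE 0.09, adjusted p = 3.3e-12). Fgf7, a secreted growth factor that acts on epithelial cells, went from 8.76, 8.83 and 8.93 to 10.61 and 10.53 (3.31-fold, adjusted p = 1.5e-10). Tcp11l2, a gene of little known function, went from 7.97, 7.97 and 8.03 to 9.56 and 9.51 (2.92-fold). The other 9 of the 12 largest rises were 2.19-fold to 2.58-fold. They included Cxcl5, a neutrophil-attracting chemokine, Ccn1, a matrix-associated signalling protein and known YAP target, Slc30a1, a zinc exporter, Bckdha, a subunit of the enzyme that degrades branched-chain amino acids, Dusp6, a phosphatase that inactivates ERK, and the contractile light chain Myl9. The remaining 3 were Heca, Ypel1 and Tgfb1i1, the last encoding an adaptor at focal adhesions.

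The largest fall was that of Ero1a, the oxidase that forms disulphide bonds in the endoplasmic reticulum and a known HIF target. Its level was 12.26, 12.20 and 12.08 under vehicle and 10.38 on both 6 h arrays, a 3.49-fold fall (log2 difference -1.80, SE 0.10, adjusted p = 8.6e-11). Igfbp5, an IGF binding protein, went from 9.50, 9.41 and 9.37 to 7.60 and 7.70 (3.43-fold lower), although its other probe set was only 0.28 lower (-0.28). The treated arrays of both genes lay far below all controls. The other falls among the 12 were 2.75-fold to 3.37-fold: Egln3, Bhlhe40, Cry1, Cth, Ak4, Fgf21, Mllt11, Hk2, Slc2a1 and Chac2. They cover an oxygen sensor (Egln3), clock repressors (Bhlhe40 and Cry1), an enzyme of cysteine synthesis (Cth), a mitochondrial adenylate kinase (Ak4), a stress-induced hormone (Fgf21), the first enzyme of glycolysis (Hk2), the main glucose transporter of many cells (Slc2a1) and an enzyme that degrades glutathione (Chac2). All 24 of these genes were called in the same direction after quantile normalization and after median centring. The second probe set of Mllt11 was not called (0.07).

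The choice of probe set and of deposited table moved the size of several changes. The mean over all probe sets of a gene gave -1.03 for Igfbp5, -0.76 for Ak4, -0.75 for Mllt11, 0.75 for Ccn1 and 0.76 for Ypel1. It also shrank the log2 difference by over 1.5 times for Acta2 (0.54), Angptl4 (0.48), Atf4 (-0.36), Atp6v1h (-0.49), Bop1 (-0.26), Cdk2 (-0.25), Clock (-0.31), Eif4e (-0.36), Epha3 (-0.38), Hspa5 (-0.31), Idh3a (-0.39), Neu1 (-0.33), Rrp1b (-0.33), Slc7a2 (0.35) and Tsc1 (-0.22), all still called, and ended the calls of Fabp4 (-0.24, adjusted p = 0.070), Gpnmb (0.20, 0.073) and Igf1 (0.08, 0.605). In the authors' deposited table of log2 ratios, where dim values are at a floor, the fall of Cry1 was not called (-0.14, adjusted p = 0.559), with 4 of its 5 arrays listed at 0. Also lost there were the calls of Asns (adjusted p = 0.127), Atf4 (0.0545), Cpeb1 (0.0972), Daam2 (0.733), Hmgcs1 (0.572), Hspa5 (0.104), Id1 (0.458), Ldha (1), Mcm2 (0.23), Scd1 (1), Sqle (0.082) and Trib3 (0.128). Genes listed there at 1 value on all 5 arrays show no change in that table and were not scored. Among them were Dusp6 (-2.58 on each array), Slc30a1 (0), Col8a1 (-3.90), Ccn2 (-3.56), Angptl4, Irs2, Ppat and Tsc1. Of called genes named here that were scored, the table gave smaller changes for Btg2 (-0.79), Car6 (-0.23), Dhcr7 (-0.52), Fgf21 (-0.26), Myl9 (0.58), Pfas (-0.24), Slc7a11 (-0.33) and Yars (-0.33), and larger ones for Vegfa (-1.11), Gpnmb (0.56) and Eef2 (0.50). List counts that moved by over 1.5 times in that table included those lower for glycolysis (6), tRNA synthetases (7), ribosome biogenesis (11) and fatty acids (7 of 16). Lower counts also moved for mitochondria (4), the unfolded protein response (7 of 20), glutathione (5), clock genes (4 of 12) and the mTORC1 pathway (3 of 19). Higher counts moved for smooth muscle genes (8 of 18), immediate early genes (6 of 23), pentose phosphate and nucleotide genes (4) and lysosome genes (5 of 29). They also moved for clock genes (1 of 12), p53 targets (1 of 19), Id and BMP genes (1 of 12) and IGF genes (0 of 9).

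**Figure D2:**
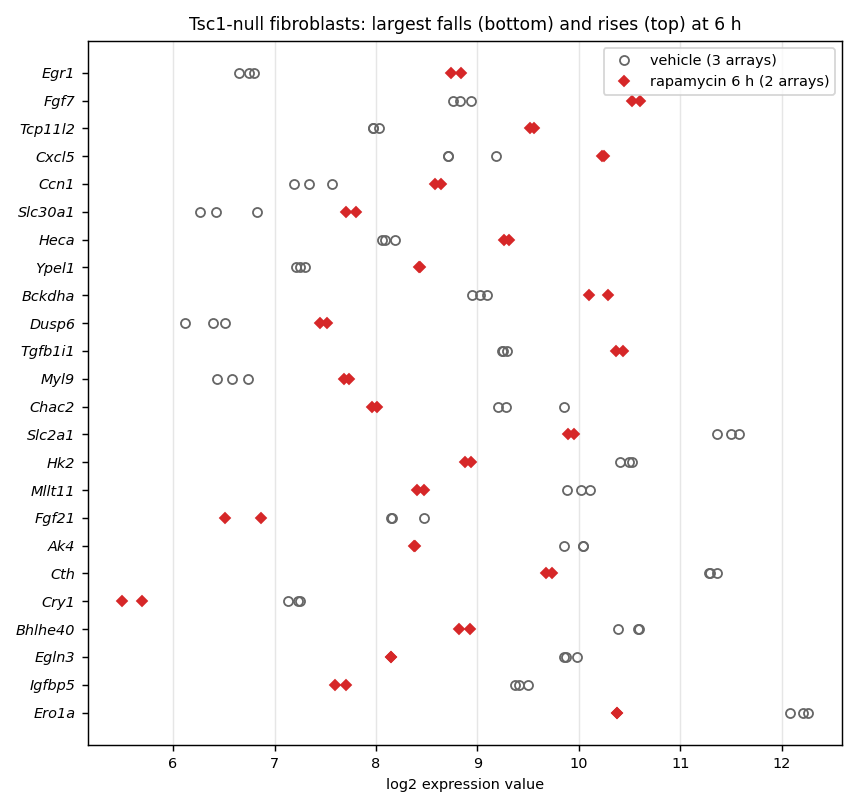
Log2 expression values (horizontal axis) of the 12 genes with the largest rises and the 12 with the largest falls at 6 h, open circles for the 3 vehicle arrays and filled diamonds for the 2 rapamycin arrays of Tsc1-null cells. The 24 genes were chosen among called genes whose treated arrays lie apart from all vehicle arrays, and they range from Egr1 (4.16-fold higher) to Ero1a (3.49-fold lower).

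HIF targets outside glycolysis fell almost as a whole. Of 17 measured, 16 were lower and 0 higher, with a median difference of -0.72 against 0.06 over all genes. After quantile normalization 16 were again lower. Egln3, the prolyl hydroxylase that marks HIF for destruction and is itself induced by HIF, went from 9.87, 9.98 and 9.85 to 8.15 on both 6 h arrays (3.37-fold, adjusted p = 8.6e-11). Bnip3, a mitochondrial protein of autophagy and cell death, fell 2.37-fold from 12.95, 12.99 and 13.08 to 11.77 and 11.76. Vegfa, the angiogenic growth factor, went from 9.79, 10.11 and 9.86 to 9.18 on both treated arrays (1.67-fold, adjusted p = 9.4e-06), and Car9, a carbonic anhydrase, fell 1.64-fold. The member not called was Hif1a itself, which encodes the oxygen-regulated subunit, at 12.43, 12.25 and 12.25 under vehicle and 12.11 on both 6 h arrays (log2 difference -0.20, adjusted p = 0.088). It was called lower under 5 alternatives, among them median centring (-0.27, adjusted p = 0.043) and the mean over its probe sets (-0.34, adjusted p = 0.001). With every probe set tested, 2 of its 3 other probe sets were called lower (-0.54, adjusted p = 0.00018, and -0.50, adjusted p = 0.0022).

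Of 17 genes of glycolysis and glucose uptake 10 were lower and 1 higher (median -0.38, the same counts after quantile normalization). The authors' deposited ratio table gave 6 lower and a median of -0.04. Slc2a1 went from 11.58, 11.50 and 11.36 to 9.95 and 9.89 (2.95-fold, SE 0.09 on a log2 difference of -1.56, adjusted p = 3.2e-10). Hk2 went from 10.49, 10.52 and 10.40 to 8.94 and 8.88, also a 2.95-fold fall (adjusted p = 1.5e-10). The treated arrays of both genes lay far below all controls. The phosphofructokinase subunits Pfkp and Pfkl fell 2.18-fold and 1.85-fold, Pdk1, which shuts pyruvate out of the mitochondrial cycle, fell 1.62-fold, and Ldha, which makes lactate, fell 1.38-fold. Ldha was among the brightest genes of the list, at 13.72 to 13.79 under vehicle and 13.31 and 13.29 at 6 h. In the authors' deposited ratio table its call was lost: the vehicle arrays read 0.98, 1.06 and 0.48 and the 6 h arrays 0.79 and 0.81 (-0.04, adjusted p = 1).

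Promoter sequences are shown for 4 of these genes, since HIF is known to bind an element with the core ACGTG and these genes fell most in their lists. The letters ACGTG or their reverse complement CACGT lay in at least 1 listed promoter (250 bases before to 50 after the start) of 13 of 15 HIF targets and 12 of 16 glycolysis genes with a promoter in the RefSeq table. They lay in 26.1% of the 14452 tested genes with a promoter and in 19.6% of all 32851 promoters of this length. The E-box CACGTG, which contains ACGTG, lay in 3 of the 15 and 3 of the 16, against 10.2% of genes and 7.15% of promoters. The CRE core TGACGT or its reverse complement ACGTCA lay in 2 of the 15 and 5 of the 16, against 11.0% of genes and 7.51% of promoters. Among all genes called lower at 6 h 37.3% held ACGTG, and among those called higher 24.8% did. These groups differ in expression level: class 9 of 10 by level held 531 lower and 188 higher genes, and class 2 held 11 and 116. Motif shares among genes of like level were not computed. These are matches of letters on either strand and not measured binding. The sequences below are from RefSeq (GRCm38.p6), 5′ to 3′ on the gene's strand, with each ACGTG or CACGT in capitals. Slc2a1 lies at chr4:119108495-119108794 (plus strand), Hk2 at chr6:82774405-82774704, Egln3 at chr12:54203825-54204124 and Ero1a at chr14:45318523-45318822 (all minus strand). Hk2 holds 2 matches and the others 1 each.
Slc2a1: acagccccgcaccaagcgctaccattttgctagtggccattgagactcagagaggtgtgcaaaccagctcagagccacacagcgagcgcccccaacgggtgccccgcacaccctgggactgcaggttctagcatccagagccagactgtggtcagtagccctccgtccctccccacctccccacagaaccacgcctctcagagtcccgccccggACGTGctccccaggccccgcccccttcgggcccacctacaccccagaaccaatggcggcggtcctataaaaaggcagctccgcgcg
Hk2: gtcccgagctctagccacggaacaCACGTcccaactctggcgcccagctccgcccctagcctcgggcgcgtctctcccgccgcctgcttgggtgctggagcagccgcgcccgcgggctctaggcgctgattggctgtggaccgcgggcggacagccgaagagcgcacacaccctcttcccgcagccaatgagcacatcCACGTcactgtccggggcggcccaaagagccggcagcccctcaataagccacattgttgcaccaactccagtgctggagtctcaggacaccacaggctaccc
Egln3: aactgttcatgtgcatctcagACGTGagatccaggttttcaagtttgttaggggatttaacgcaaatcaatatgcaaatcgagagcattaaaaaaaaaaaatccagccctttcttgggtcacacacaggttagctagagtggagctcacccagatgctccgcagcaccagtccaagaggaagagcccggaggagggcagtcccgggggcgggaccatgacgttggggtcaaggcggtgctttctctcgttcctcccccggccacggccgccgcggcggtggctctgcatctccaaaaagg
Ero1a: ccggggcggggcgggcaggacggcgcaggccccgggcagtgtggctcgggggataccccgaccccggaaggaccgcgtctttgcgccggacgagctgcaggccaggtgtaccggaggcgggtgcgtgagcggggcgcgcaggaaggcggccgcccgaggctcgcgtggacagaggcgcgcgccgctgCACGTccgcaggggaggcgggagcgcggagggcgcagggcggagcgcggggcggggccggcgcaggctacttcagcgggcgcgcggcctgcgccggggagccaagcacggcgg

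ATF4 and the genes it is known to drive fell as well, with 24 of 28 measured members lower and 0 higher (median -0.62, 23 lower after quantile normalization). Atf4, the transcription factor of the amino acid response, went from 13.10, 13.05 and 13.05 to 12.51 on both 6 h arrays (1.47-fold, adjusted p = 1.3e-05). Cth, which makes cysteine, went from 11.36, 11.28 and 11.30 to 9.74 and 9.67 (3.05-fold, adjusted p = 7e-10). Psph, the last enzyme of serine synthesis, went from 11.75, 11.72 and 11.85 to 10.52 and 10.43 (2.46-fold). In each of the 3 genes the treated arrays lay below all controls and close to each other. Ddit3, a stress-induced transcription factor, fell 2.04-fold, Slc7a11, the cystine importer, fell 2.02-fold, Psat1 of serine synthesis fell 1.56-fold and Mthfd2 of mitochondrial folate metabolism fell 1.47-fold. Fgf21 fell 2.96-fold, to 6.52 and 6.87 from 8.14, 8.16 and 8.47. Asns, asparagine synthetase, moved least among the lead genes (1.25-fold lower), and its call was lost without 6 h replicate 2 (adjusted p = 0.0506).

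Cytosolic aminoacyl-tRNA synthetases, which load amino acids onto tRNA and include known ATF4 targets, had 14 of 19 lower and 1 higher (median -0.34, 13 lower after quantile normalization, 7 in the authors' deposited ratio table). Farsb, a subunit of the phenylalanine enzyme, fell 1.82-fold, and the histidine, isoleucine and tyrosine enzymes Hars, Iars and Yars fell 1.52-fold, 1.51-fold and 1.46-fold.

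Sterol synthesis genes fell along the pathway, with 15 of 20 lower and 0 higher (median -0.39, 14 lower after quantile normalization). Hsd17b7, an enzyme of late sterol synthesis, went from 10.37, 10.26 and 10.38 to 9.16 and 9.09 (2.32-fold, adjusted p = 6.4e-10). Dhcr7, which makes cholesterol in the final step, went from 9.80, 9.80 and 9.88 to 9.03 and 8.85 (1.85-fold). Sc5d fell 1.76-fold, Stard4, a cholesterol carrier, 1.71-fold, Sqle 1.39-fold and Hmgcs1 1.32-fold. The calls of Sqle and Hmgcs1 were lost in the authors' deposited ratio table (-0.28, adjusted p = 0.082, and -0.12, adjusted p = 0.572), and 3 of 4 other Hmgcs1 probe sets were not called. Neither Srebf2, the transcription factor of this pathway (0.13, adjusted p = 0.29), nor Insig1, a known SREBP target that holds SREBP back (0.01, adjusted p = 0.93), passed the test, although Srebf2 did after quantile normalization with the dimmest 40% of genes left out (0.21, adjusted p = 0.045). Fatty acid genes had 11 of 18 lower and 1 higher (median -0.26, 8 lower after quantile normalization). Elovl6, a fatty acid elongase, fell 1.85-fold, from 11.86, 11.92 and 11.90 to 11.07 and 10.94, and Acss2, which makes acetyl-CoA from acetate, fell 1.61-fold. Lpin1, a phosphatidate phosphatase, had a log2 difference of -0.59 (adjusted p = 0.00011), and Fasn, fatty acid synthase, fell 1.38-fold. The fatty acid count was 6 without 6 h replicate 1 and 5 without 6 h replicate 2. Scd1, a desaturase, was 1.17-fold lower (adjusted p = 0.047), a call lost without 6 h replicate 1 (0.155), 6 h replicate 2 (0.193), vehicle replicate 1 (0.0973) or vehicle replicate 2 (0.132), with only the arrays compared (0.067) and with quantile normalization within the Tsc1-null arrays (0.0561). In the authors' deposited ratio table its difference was -0.0074 (adjusted p = 1). Srebf1 did not pass (0.04, adjusted p = 0.69).

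**Figure D3:**
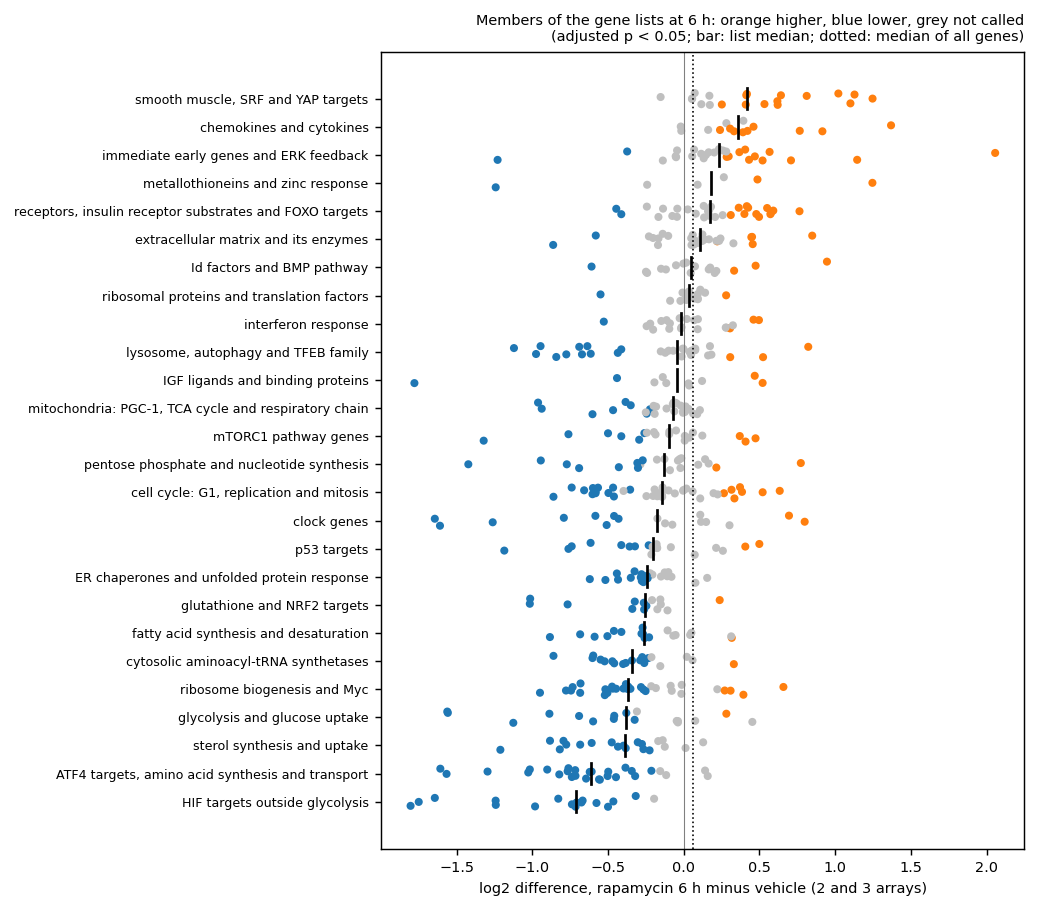
Log2 difference between rapamycin 6 h and vehicle in Tsc1-null cells (horizontal axis) for every measured member of 26 gene lists, 1 point per gene, orange for members called higher, blue for lower and grey for not called, with a bar at the list median. HIF targets (median -0.72) and ATF4 targets (-0.62) lie farthest to the left and smooth muscle, SRF and YAP targets (0.41) farthest to the right, against a median of 0.06 over all genes (dotted).

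Among genes of the pentose phosphate pathway and nucleotide synthesis, 8 of 21 were lower and 2 higher (median -0.13), and the 2 became 1 without either 6 h array or vehicle replicate 1 or 2. With the dimmest 40% of genes left out, 9 of the 21 were lower and 2 higher, beside 2573 and 1606 of all 10916 genes kept. Rpia, which makes ribose 5-phosphate, went from 10.27, 10.15 and 10.32 to 8.80 and 8.84 (2.68-fold lower, adjusted p = 1.5e-10). The purine enzymes Pfas and Ppat fell 1.92-fold and 1.71-fold. Ctps, which makes CTP, rose 1.71-fold, from 10.83, 10.93 and 11.08 to 11.70 and 11.74, with no overlap between the groups. For ribosome biogenesis and Myc 20 of 31 were lower and 4 higher (median -0.37, 16 lower and 5 higher after quantile normalization). The 4 became 2 without 6 h replicate 1 or vehicle replicate 2 and 1 without 6 h replicate 2. The nucleolar protein Gnl3 fell 1.93-fold, the spermidine synthase gene Srm 1.68-fold and Bop1 and Rrp1b of ribosome assembly 1.43-fold and 1.61-fold, although no other probe set of Bop1 or Rrp1b was called. Myc itself rose 1.58-fold, from 9.37, 9.43 and 9.40 to 10.12 and 9.99 (adjusted p = 2.4e-05), and its known target Odc1 did not pass (-0.02, adjusted p = 0.92). Ribosomal proteins and translation factors had 1 lower and 1 higher of 18 (median 0.04), against 13.0% lower and 9.50% higher over all genes. The cap-binding protein gene Eif4e fell 1.46-fold, and Eef2, the elongation factor, was 1.21-fold higher (adjusted p = 0.0066), a call lost without 6 h replicate 1 (0.0587) or replicate 2 (0.0515) and after median centring (0.104).

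Among mitochondrial genes 8 of 28 were lower and 0 higher (median -0.07), against 13.0% lower over all genes, and the 8 became 5 without 6 h replicate 2. All 28 lay above the dimmest 40% of genes. With that 40% left out, 9 of the 28 were lower, beside 2573 of all 10916 genes kept. The 8 called in the main fit were led by Idh3a of the TCA cycle (1.95-fold lower) and by Ppargc1a, the coactivator PGC-1alpha, which went from 10.09, 9.78 and 9.90 to 8.98 on both 6 h arrays (1.92-fold, adjusted p = 4e-07). Ogdh fell 1.52-fold and Cycs, cytochrome c, 1.38-fold. Genes of lysosomes, autophagy and the TFEB family had 11 of 30 lower and 3 higher (median -0.04, 11 lower and 6 higher after quantile normalization). The lower ones included Fnip2, partner of folliculin (2.18-fold), Atp6v1h, a subunit of the proton pump that acidifies lysosomes (1.97-fold), and Neu1, the lysosomal sialidase (1.93-fold, although its 2 other probe sets were not called). With the dimmest 40% of genes left out, 10 of 29 lysosome and autophagy genes were lower and 3 higher, beside 2573 and 1606 of 10916 genes. Wipi1, which acts in the formation of autophagosomes, rose 1.77-fold, from 9.49, 9.54 and 9.58 to 10.38 and 10.33. Gpnmb, a glycoprotein and known target of the TFEB family, was 1.24-fold higher (adjusted p = 0.0063), and its call was lost without 6 h replicate 1 (0.189) and after median centring (0.091).

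Genes of the mTORC1 pathway itself had 6 of 20 lower and 3 higher (median -0.10, the same counts after quantile normalization). The shares over all genes were 13.0% lower and 9.50% higher. With the dimmest 40% of genes left out, 8 of the 20 were lower and 3 higher, beside 2573 and 1606 of all 10916 genes kept. Ddit4, which encodes the mTORC1 inhibitor REDD1, went from 12.71, 12.57 and 12.56 to 11.29 on both 6 h arrays (2.50-fold, adjusted p = 1.9e-09). Sesn2 and Sesn1, which also restrain the pathway, fell 1.70-fold and 1.33-fold, and Castor1, an arginine sensor, rose 1.39-fold. The kept Tsc1 probe set read 6.92, 7.02 and 7.38 under vehicle and 6.51 and 6.71 at 6 h (log2 difference -0.50, adjusted p = 0.0084). Its call was lost without 6 h replicate 1 (0.122) or vehicle replicate 3 (0.0565), and its 2 other probe sets were not called. The place of these probe sets relative to the deletion is unknown here, so Tsc1 does not check the genotype label. Tsc2 read 9.70, 9.72 and 9.64 under vehicle and 9.81 on both 6 h arrays and was not called (0.12, adjusted p = 0.34), but was called higher under the 2 quantile settings added after seeing the data (0.23 in both, adjusted p = 0.036 and 0.034).

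Of 27 immediate early genes and genes of ERK feedback, 11 were higher and 2 lower (median 0.23, 14 and 2 after quantile normalization), and the 11 became 5 without 6 h replicate 1 and 6 without 6 h replicate 2. Beside Egr1, Dusp6 went from 6.11, 6.39 and 6.51 to 7.52 and 7.45 (2.21-fold, adjusted p = 2.7e-07), and Phlda1 rose 1.63-fold. The exception in size was Atf3, an immediate early gene that is also an ATF4 target, which fell 2.35-fold, from 9.52, 9.62 and 9.83 to 8.34 and 8.50. Among receptors, insulin receptor substrates and FOXO targets, 12 of 30 were higher and 2 lower (median 0.17, 16 and 2 after quantile normalization). Klf2 rose 1.51-fold and Txnip, which restrains glucose uptake, 1.46-fold, from 10.54, 10.48 and 10.42 to 11.02 and 11.05. Irs2, which couples the insulin receptor to PI3K, went from 7.87, 7.85 and 7.64 to 8.25 and 8.47 (1.49-fold, adjusted p = 0.00022), and Foxo4 rose 1.39-fold. Irs1 (0.13, adjusted p = 0.34) and Pdgfrb (0.03, adjusted p = 0.89) did not pass, but Irs1 did after quantile normalization (0.23, adjusted p = 0.046). Met, the receptor of hepatocyte growth factor, fell 1.36-fold.

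Smooth muscle genes and targets of SRF and YAP had 13 of 20 higher and 0 lower (median 0.41, 13 and 0 after quantile normalization). Acta2, smooth muscle actin, went from 9.50, 9.37 and 9.60 to 10.52 and 10.66 (2.14-fold, adjusted p = 3e-09), although its 2 other probe sets were not called (0.23 and 0.29). Myl9 went from 6.58, 6.43 and 6.74 to 7.69 and 7.73 (2.19-fold), Ccn1 rose 2.37-fold and Cnn2, a calponin, 1.76-fold. Treated arrays of these genes lay above all controls. Extracellular matrix genes had 5 higher and 2 lower of 32 (median 0.10): Thbs1 rose 1.80-fold and Dcn 1.37-fold, whereas Plod2, a collagen-modifying enzyme and known HIF target, fell 1.82-fold and Timp3, a protease inhibitor, had a log2 difference of -0.58. Chemokines and cytokines had 9 of 14 higher and 0 lower (median 0.36, 9 after quantile normalization, 5 after median centring or without 6 h replicate 2). Cxcl5 went from 8.71, 8.71 and 9.18 to 10.24 and 10.23 (2.58-fold), Ccl2, which attracts monocytes, rose 1.89-fold, Ptgs2, the inducible cyclooxygenase, 1.70-fold and Csf1 1.34-fold. The Csf1 call was lost without 6 h replicate 2 (adjusted p = 0.0564). Of 17 Id factors and BMP genes 3 were higher and 1 lower (median 0.05). Over all genes 9.50% were higher and 13.0% lower, which is also the background of the matrix and IGF counts. Bmp4 rose 1.93-fold, and Id1 was 1.53-fold lower (adjusted p = 0.00083), a call lost without 6 h replicate 2 (0.0596). The higher count was 1 without either 6 h array or vehicle replicate 1 or 3 and 2 without vehicle replicate 2. Of 10 IGF ligands and binding proteins 2 were higher (1 without either 6 h array) and 2 lower (median -0.04), Igfbp3 with a 1.36-fold fall beside Igfbp5.

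Cell cycle genes moved both ways, 12 of 38 lower and 7 higher (median -0.14, 13 and 10 after quantile normalization), and the 7 became 3 without 6 h replicate 1. With the dimmest 40% of genes left out, 14 of 36 were lower and 7 higher, beside 2573 and 1606 of all 10916 genes kept. Rrm2, which makes deoxynucleotides, fell 1.82-fold, Mcm2 of the replicative helicase 1.58-fold and Cdk2 1.48-fold (its other probe set was not called, 0.07). Cdkn1a, the cell cycle inhibitor p21, went from 9.75, 9.77 and 9.77 to 8.95 and 9.09 (1.67-fold lower, adjusted p = 4.3e-06). Ccnd1 did not pass (0.20, adjusted p = 0.19), but did after quantile normalization (0.27, adjusted p = 0.042). The line keeps p53, and 8 of 20 p53 targets were lower and 2 higher (median -0.21, 6 and 2 after quantile normalization), among them Btg2, an antiproliferative gene (2.27-fold lower, from 8.87, 8.87 and 9.15 to 7.69 and 7.86), and Aen (1.53-fold lower). Of the 18 p53 targets kept when the dimmest 40% of genes were left out, 9 were lower and 2 higher.

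Among clock genes 8 of 17 were lower and 2 higher (median -0.17, the same counts after quantile normalization). With the dimmest 40% of genes left out, 8 of 14 were lower and 2 higher, beside 2573 and 1606 of all 10916 genes kept. Cry1, a repressor of the clock, went from 7.26, 7.13 and 7.23 to 5.69 and 5.50 (3.05-fold), Bhlhe40 fell 3.13-fold, Ciart 2.40-fold and Clock 1.73-fold. The call of Cry1 was lost in the authors' deposited ratio table (-0.14, adjusted p = 0.559). Of 3 other Clock probe sets 2 were not called, and the mean over its probe sets was -0.31. Chaperones of the endoplasmic reticulum and genes of the unfolded protein response had 12 of 21 lower and 0 higher (median -0.24, 8 lower after quantile normalization, 6 without either 6 h array). Hspa5, the chaperone BiP, fell 1.54-fold, from 12.91, 12.87 and 13.01 to 12.31 on both 6 h arrays, and Herpud1 fell 1.35-fold. Glutathione genes and NRF2 targets had 8 of 14 lower and 1 higher (median -0.25). The 8 became 5 after quantile normalization, 4 without 6 h replicate 1 and 3 without 6 h replicate 2. Hmox1, which degrades haem, fell 2.02-fold and Gclc, the first enzyme of glutathione synthesis, 1.70-fold. Of 6 metallothionein and zinc genes 2 were higher (1 without either 6 h array or vehicle replicate 1 or 2) and 1 lower: Slc30a1, which exports zinc, rose 2.37-fold, from 6.27, 6.42 and 6.83 to 7.70 and 7.80, and Slc39a10, which imports it, fell 2.37-fold, from 11.38, 11.32 and 10.77 to 9.99 and 9.84. Of 21 interferon response genes 3 were higher and 1 lower (median -0.02, 1 and 0 without 6 h replicate 2), against 9.50% and 13.0% over all genes. Ccl5 was 1.38-fold higher, a call lost without 6 h replicate 2 (adjusted p = 0.0516).

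The 6 h arrays were set directly against the 2 h arrays, a contrast with no vehicle array, to see what moved between these times. On principal component 2, an axis with 18.8% of the variance of the 11 Tsc1-null arrays, the 6 h arrays lay at 18.2 and 20.7. The other Tsc1-null arrays lay at 3.15 or lower. A technical property shared by the 6 h arrays would enter this contrast and that with 12 h, and was not tested. Of all genes 3012 (16.6%) differed, 1233 higher (6.78%) and 1779 lower (9.78%) at 6 h, and quantile normalization gave 1568 higher and 1358 lower. The count was 808 without 2 h replicate 2, 1287 without 6 h replicate 1 and 997 without 6 h replicate 2. Several lists fell in this interval: 15 of 17 HIF targets, 10 of 17 glycolysis genes, 23 of 28 ATF4 targets, 15 of 20 sterol genes and 11 of 18 fatty acid genes were lower at 6 h than at 2 h. Other metabolic lists moved less: mitochondrial genes had 5 of 28 lower and 0 higher, and pentose phosphate and nucleotide genes 6 of 21 lower and 1 higher. Hk2 read 10.45 and 10.48 at 2 h, within the range of its vehicle arrays, and 8.94 and 8.88 at 6 h (log2 difference -1.56, SE 0.10, adjusted p = 5.1e-09). Egr1 and Dusp6 were already above their vehicle arrays at 2 h. Egr1 read 9.04 and 9.15 at 2 h, slightly above its 6 h values (-0.31, adjusted p = 0.036), and Dusp6 read 7.88 and 7.79 (-0.35, adjusted p = 0.055). Of 27 immediate early and ERK feedback genes 3 were higher at 6 h than at 2 h and 5 lower, and of 30 receptor and FOXO genes 1 was higher and 6 lower.

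A few genes went up at 2 h and below control at 6 h. Fnip2 averaged 10.06 ± 0.14 (SD, n = 3) under vehicle, 10.81 ± 0.08 (n = 2) at 2 h and 8.94 ± 0.04 (n = 2) at 6 h, and the fall from 2 h was 1.87 on the log2 scale (-1.87, adjusted p = 8.5e-09). Ppargc1a averaged 9.92, 10.47 and 8.98 in the same order (6 h minus 2 h -1.49, adjusted p = 1.1e-08), and Lpin1 9.17, 9.76 and 8.59 (-1.17, adjusted p = 2.7e-07). Other large falls after 2 h were those of Igfbp5 (-1.73), Eda2r, a receptor of the TNF family (-1.55), Ero1a (-1.53) and Cpeb1, a regulator of mRNA polyadenylation (-1.51). The largest rises after 2 h were those of Cxcl5 (0.98), Csrp1, a LIM protein of the cytoskeleton (0.96), Fgf7 (0.94), Slc30a1 (0.94), Tgfb1i1 (0.91) and Card10 (0.87). Of the 12 largest falls at 6 h against vehicle 11 were also lower than at 2 h, Fgf21 being the exception, and 9 of the 12 largest rises were also higher than at 2 h.

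**Figure D4:**
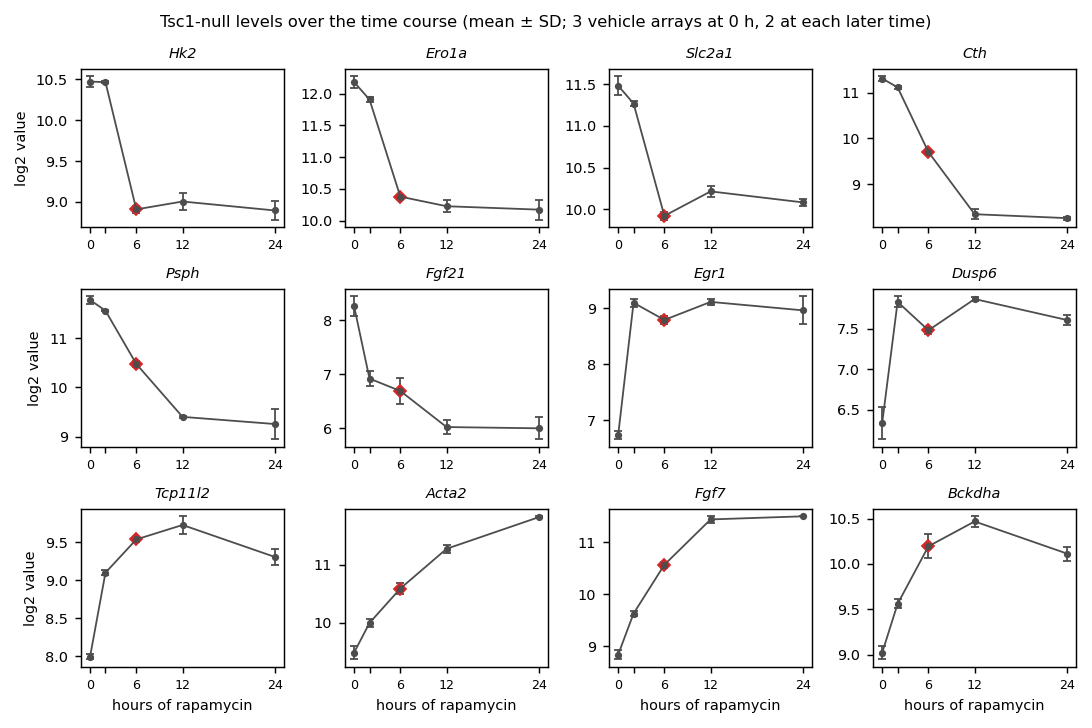
Mean log2 level ± SD (vertical axis) of 12 genes in Tsc1-null cells under vehicle (0 h, 3 arrays) and after 2, 6, 12 and 24 h of rapamycin (2 arrays each), with the 6 h value as a diamond. Hk2, Ero1a and Slc2a1 drop between 2 and 6 h, Cth and Psph drop again by 12 h, Egr1 and Dusp6 are up at 2 h, and Acta2 and Fgf7 rise from each of the first 3 times to the next.

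The 12 h arrays were set against the 6 h arrays in the same way. Here 846 genes (4.65%) differed, 567 higher (3.12%) and 279 lower (1.53%) at 12 h, and quantile normalization gave 448 higher and 428 lower. Leaving out 1 array gave 520 and 186 without 12 h replicate 1 and 2, and 278 and 230 without 6 h replicate 1 and 2. Amino acid genes went on falling: 18 of 28 ATF4 targets and 10 of 19 tRNA synthetases were lower at 12 h than at 6 h, against 1 of 17 HIF targets and 0 of 20 sterol genes. Slc7a3, a transporter of basic amino acids, went from 10.61 and 10.64 at 6 h to 8.75 on both 12 h arrays (-1.87, adjusted p = 2.7e-09). Cth (-1.36), Trib3, an inhibitor of ATF4 (-1.14), and Psph (-1.07) also fell further. Car6, a secreted carbonic anhydrase, and Fabp4, a fatty acid carrier of adipocytes and macrophages, fell by 1.15 and 1.02 on the log2 scale (-1.15 and -1.02). At 6 h Fabp4 was 1.55-fold lower than under vehicle (adjusted p = 0.0063), a call lost without 6 h replicate 1 (0.1). The cytoskeletal genes went on rising, with 10 of 20 higher at 12 h than at 6 h, Acta2 by 0.68 (adjusted p = 6.1e-05). The largest rises from 6 h to 12 h were those of Fst, which encodes the activin antagonist follistatin (1.62), Kank3 (1.54), Sfrp2, a modulator of Wnt signalling (1.06), Angptl4 (1.05), Col8a1 (1.00) and the ephrin receptor Epha3 (1.00). Of these, Sfrp2 had not passed at 6 h (0.24, adjusted p = 0.17) but did after quantile normalization (0.35, adjusted p = 0.037), and Epha3 was 1.52-fold lower at 6 h than under vehicle. Kank3 was 1.51-fold higher at 6 h, a call lost without 6 h replicate 2 (adjusted p = 0.105). Met was back near its vehicle level by 12 h, at 9.28 ± 0.07 (n = 3) under vehicle, 8.83 on both 6 h arrays and 9.25 and 9.32 at 12 h (0.46, adjusted p = 0.0017). Igf1 read 6.94 and 6.78 at 6 h and 6.24 and 6.18 at 12 h (-0.65, adjusted p = 0.0057). Its rise over vehicle at 6 h (1.38-fold) was lost without 6 h replicate 1 (adjusted p = 0.0987), and none of its 3 other probe sets was called.

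The 6 h response was then compared with that of the Tsc2-null line, which has its own vehicle arrays. In the Tsc2-null line 3869 genes (21.3%) were called, 2106 higher (11.6%) and 1763 lower (9.69%). Of these and the 4099 of the Tsc1-null line, 1921 were called in the same direction in both, 718 higher and 1203 lower, which is 46.9% of the Tsc1-null and 49.7% of the Tsc2-null calls. In the opposite direction 69 were called. Of the 24 genes with the largest changes in the Tsc1-null line, 10 of the rises and 11 of the falls were called in the same direction in the Tsc2-null line. The difference between the responses passed its own test (the interaction) for 755 genes (4.15%), 233 with a more positive (1.28%) and 522 with a more negative change (2.87%) in the Tsc1-null line. Quantile normalization gave 464 and 505. The count was 260 without Tsc2-null 6 h replicate 1, 1144 without Tsc2-null 6 h replicate 2, 293 and 280 without Tsc1-null 6 h replicate 1 and 2, 486 without Tsc1-null vehicle replicate 3 and 449 without Tsc2-null vehicle replicate 2. The lines also differ in p53 status and origin, which cannot be told apart from the genotype.

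**Figure D5:**
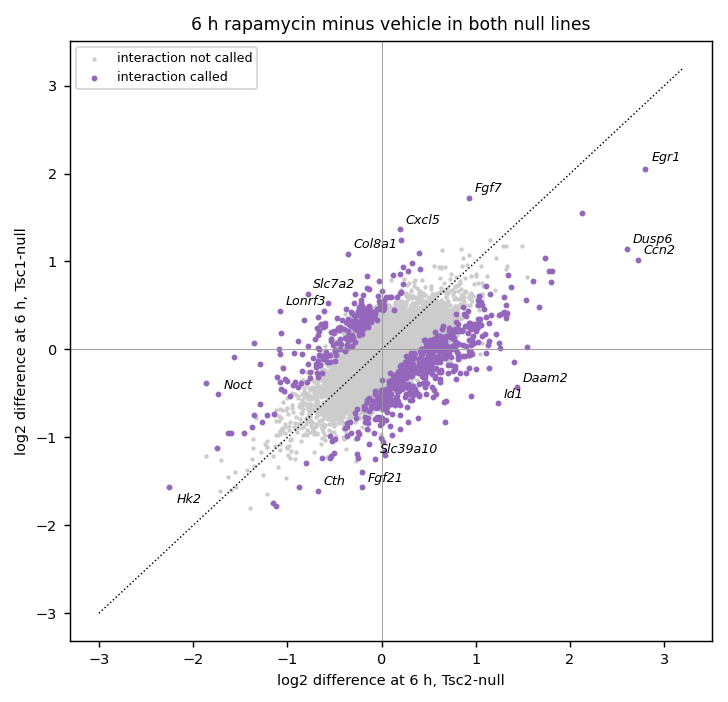
Log2 difference between rapamycin 6 h and vehicle in Tsc1-null cells (vertical axis) against that in Tsc2-null cells (horizontal axis), 1 point per gene, purple where the interaction was called, with the line of equal change dotted. Egr1 is high in both lines (2.06 and 2.79), and Daam2 and Id1 lie below 0 in Tsc1-null and above it in Tsc2-null cells.

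Among genes called at 6 h in the Tsc1-null line, 406 also had the interaction called. In the Tsc2-null line 107 of them were called in the same direction, 69 in the opposite direction and 230 were not called. Daam2, a formin of Wnt signalling, read 8.50, 8.54 and 8.51 under vehicle and 8.04 and 8.13 at 6 h in Tsc1-null cells, against 7.67, 7.62 and 7.83 and then 9.09 and 9.20 in Tsc2-null cells (interaction -1.87, SE 0.17, adjusted p = 2e-06). Id1, an inhibitor of helix-loop-helix factors and a known BMP target, read 8.22, 8.25 and 8.06 and then 7.76 and 7.37, against 8.58, 8.53 and 8.60 and then 9.86 and 9.75 (interaction -1.85, SE 0.17, adjusted p = 2e-06). Both went in opposite directions in the lines. The fall of Daam2 in Tsc1-null cells was lost without 6 h replicate 1 (adjusted p = 0.115) or replicate 2 (0.0598), and that of Id1 without replicate 2 (0.0596). Neither fall was called in the authors' deposited ratio table (-0.12, adjusted p = 0.733, and -0.14, adjusted p = 0.458). Timp3 fell by 0.58 in Tsc1-null cells (-0.58) and rose by 0.68 in Tsc2-null cells. Slc7a2, an arginine transporter, and Col8a1, a short-chain collagen, rose in Tsc1-null cells (0.63 and 1.09) and fell in Tsc2-null cells (-0.78 and -0.35), with interactions of 1.42 and 1.44.

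Several lead genes moved the same way in both lines by different amounts. Hk2 fell more in Tsc2-null cells, from 10.94, 10.91 and 10.78 to 8.68 and 8.57 (-2.26 against -1.56, interaction adjusted p = 0.0025). Slc2a1 fell more in Tsc1-null cells, since the Tsc2-null arrays went from 12.08, 12.10 and 12.03 to 11.31 and 11.07 (-0.88 against -1.56, interaction adjusted p = 0.0049). Egr1 (2.06 against 2.79), Dusp6 (1.15 against 2.60) and Ccn2, a matrix-associated YAP target (1.02 against 2.72), rose less in Tsc1-null cells. Ccn2 was dim in Tsc1-null cells, at 4.91, 4.51 and 4.88 under vehicle and 5.88 and 5.70 at 6 h. Fgf21 fell in Tsc1-null cells but read 6.16, 6.29 and 6.29 under vehicle and 5.97 and 6.12 at 6 h in Tsc2-null cells (-0.20, adjusted p = 0.28), below both treated Tsc1-null arrays throughout. Cth fell by 1.61 and 0.68 (-1.61 and -0.68, interaction -0.93), and Ctps rose in Tsc1-null cells (0.77) with a difference of -0.03 in Tsc2-null cells. By list, the interaction was called more negative in Tsc1-null cells for 5 of 28 ATF4 targets and 4 of 17 HIF targets and more positive for 0 of both. The shares over all genes were 2.87% more negative and 1.28% more positive. Of 27 immediate early and ERK feedback genes 7 were more negative and 2 more positive. The counts were 5 and 1 of 30 receptor and FOXO genes and 2 and 3 of 17 glycolysis genes. The interaction was called for 1 of 20 sterol genes and 0 of 18 ribosomal proteins and translation factors, against 4.15% over all genes.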

How the data were processed

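RNA of 25 plates was hybridised to Affymetrix mouse whole-genome arrays, 1 array per plate. The deposited values are log2 intensities. Per the submitters' processing notes they were made with RMA, which usually includes quantile normalization, and limma is also named, neither with a version. Which probe-to-gene definition they used is not known here. The deposited arrays nevertheless differ in spread, so normalization was rechecked. The authors also deposited a table of log2 ratios to a wild-type vehicle median. It lists 61.4% of probe sets at 0 on all arrays and served as an alternative over 9525 genes. Such arrays give no read depth, and their number limits the precision.

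Of 45101 probe sets, 64 are controls, 34945 have 1 gene in the platform annotation, 932 several and 9160 none. Of the first kind, 34741 matched a RefSeq symbol. Each of 18193 genes was represented by its brightest probe set, judged on the mean of the 25 arrays. For 44 of the 9010 genes with more than 1 probe set, probe sets were called in opposite directions at 6 h. In limma 3.58.1 (R 4.3.3), 1 mean per group was fitted over 25 arrays and 11 groups, with moderated two-sided tests and Benjamini-Hochberg adjustment over all genes at 0.05. The residual degrees of freedom were 14, and the prior added 7.08. The fit was tested on simulated data.

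Groups follow the titles. A title with a misspelled genotype was read by its other labels, and time points that differ in the descriptions of 12 h and 24 h arrays were taken from the titles. Gene lists and genes were chosen with earlier results of these data known. Named are the 12 largest rises and falls among called genes whose arrays do not overlap, a fixed set of lead genes, the 4 called members of each list with the smallest p, and the 6 largest called changes in each direction of the other comparisons. Same-numbered deviations of treated and vehicle arrays from their group means correlated at -0.00137 and 0.0544. With 2 treated arrays the deviations mirror each other, so this cannot tell whether replicate numbers mark a shared batch. On principal component 2 of the Tsc1-null arrays, replicate 2 lay below replicate 1 at 2 h (-11.3 and 0.21), 12 h (-9.55 and 1.81) and 24 h (-17.2 and 1.28). At 6 h it lay above (20.7 and 18.2). Alternatives were quantile normalization, median centring, an offset of 64 on the linear scale, omission of the dimmest 40% of genes, the mean over probe sets, every probe set tested, limma's trend and robust options, array weights, only the arrays compared, a replicate block, the ratio table and each array left out. Quantile normalization within the 11 Tsc1-null arrays, and with the dimmest 40% left out, was added after seeing the data.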

Additional observations from a re-analysis of the deposited data

Results flagged for a closer look

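The 6 h response differed between the Tsc1-null and Tsc2-null lines, by limma's interaction test at an adjusted p under 0.05, for 52 of the 154 named genes. Part of the 154 were named for a called interaction, so the choice raised this share. Over all 18193 genes 755 (4.15%) had the interaction called. Each value is the log2 change in Tsc1-null minus that in Tsc2-null cells, and the lines also differ in p53 and origin.

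Among genes that fell in Tsc1-null cells and rose in Tsc2-null cells, the difference was -1.87 for Daam2, -1.85 for Id1, -1.50 for Pag1, an adaptor that holds back Src kinases, -1.48 for Il33, a nuclear cytokine, -1.26 for Timp3, -0.76 for Mid1ip1, a partner of acetyl-CoA carboxylase, and -0.75 for Sesn1. None of the 3 other Pag1 probe sets was called at 6 h or for the interaction, and the mean over its probe sets was not called at 6 h (-0.21, adjusted p = 0.076). Il33 was called lower in Tsc1-null cells (-0.53), but not without 6 h replicate 1 (adjusted p = 0.141).

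Genes that rose less in Tsc1-null cells had differences of -1.70 for Ccn2, -1.46 for Dusp6, -0.88 for Csf1, -0.74 for Egr1, -0.71 for Klf2, -0.58 for Tcp11l2 and -0.49 for Thbs1. Genes lower in Tsc1-null cells whose change in Tsc2-null cells was smaller or near 0 had differences of -1.36 for Fgf21, -1.18 for Cpeb1, -1.17 for Slc39a10, -1.08 for Eda2r, -1.01 for Car6, -0.93 for Cth and for Btg2, -0.68 for Slc2a1, -0.65 for Igfbp5, -0.60 for Egln3, -0.59 for Atf3, -0.58 for Igfbp3, -0.50 for Psph, -0.49 for Pfkl and for Met, -0.44 for Iars and -0.42 for Yars.

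On the positive side, Srm (0.47), Fnip2 (0.63), Neu1 (0.65), Hk2 (0.69) and Noct, a deadenylase-like clock gene (1.23), fell less in Tsc1-null cells. The 6 h fall of Noct was not called in the authors' deposited ratio table (adjusted p = 0.138). Dcn (0.32), Angptl4 (0.66), Acta2 (0.70), Fgf7 (0.80), Ctps (0.80), Slc30a1 (1.04) and Cxcl5 (1.17) rose in Tsc1-null cells and rose less or were near 0 in Tsc2-null cells. Gpnmb (0.58), Igf1 (0.60), Ccl5 (0.62), Sla (1.16), Slc7a2 (1.42), Col8a1 (1.44) and Lonrf3 (1.52) had positive differences in Tsc1-null and negative ones in Tsc2-null cells. The Tsc1-null call of Sla was lost after quantile normalization (adjusted p = 0.092), and that of Lonrf3 with the mean over probe sets (0.099). The other Lonrf3 probe set had an interaction of 0.42 (adjusted p = 0.37). Other Sla probe sets had interactions of 0.79 (adjusted p = 0.036), 0.13 (0.71) and 0.10 (0.73). Srebf1 (0.35) and Tsc2 (0.67) were not called in Tsc1-null cells. After quantile normalization the interaction was no longer called for Atf3 (adjusted p = 0.078), Pfkl (0.051) and Igf1 (0.062).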

How the results depend on the processing

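The split of higher and lower calls depended on the setting. Against vehicle, lower calls outnumbered higher ones (2371 and 1728), but higher ones led after quantile normalization (2261 and 2049) and with array weights (3393 and 3106). Against 2 h the split went from 1233 higher and 1779 lower to 1568 and 1358 after quantile normalization. Between 12 h and 6 h it went from 567 and 279 to 611 and 630 with the dimmest 40% also left out. Several counts moved by more than 1.5 times. Testing every probe set gave 6705 changed and 4146 lower at 6 h against vehicle, 4989 against 2 h and 1477 between 12 h and 6 h, with more features tested. Array weights gave 6499 changed and 3393 higher, 5742 and 3323. Centring gave 770 higher. The authors' ratio table, in which dim values are at a floor, gave 1336 lower, 1666 and 561. With only the arrays compared, 503 genes differed between 12 h and 6 h. Quantile normalization with the dimmest 40% left out, added after seeing the data, gave 1260 interactions. Except where shown by how an alternative was built, the cause was not tested. Leaving out 1 array gave 2087 to 3802 changed, 691 to 1496 higher and 1396 to 2306 lower, 808 to 2538 against 2 h, 186 to 520 between 12 h and 6 h and 260 to 1144 interactions. With a lone array in a group, it is assumed to vary like the others.

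The replicate number as a replicate block gave 3459 changed (1362 higher and 2097 lower), 2694 against 2 h, 733 between 12 h and 6 h and 658 interactions, all within 1.5 times of the fit without it.

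None of the 144 named genes called at 6 h changed the sign of its difference under these alternatives, whereas 4 of the 10 uncalled ones did (Odc1, Insig1, Pdgfrb and Srebf1). Quantile normalization kept the call or its absence for 148, ended 3 calls and gave 3. The most calls were lost without 6 h replicate 2 (17) and without 6 h replicate 1 or in the ratio table (14 each).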

Other observations

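The E-box CACGTG, bound by TFEB family, clock and Myc factors, lay in promoters of 10 of 26 lysosome, autophagy and TFEB family genes (38.5%) and 5 of 15 clock genes (33.3%), against 10.2% of tested genes with a promoter. Among genes called lower at 6 h 17.2% held it, and among those called higher 8.76%. The CRE core TGACGT or ACGTCA lay in 4 of 23 ATF4 targets (17.4%), against 11.0% of tested genes, in 15.0% of the lower and 10.7% of the higher genes. These are letter matches on both strands in RefSeq promoters, the groups of genes were not matched for expression level, and no binding was measured.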
